A study of Mus musculus with 12 samples.

Results

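A set of genes of the fibronectin matrix and of elastic fibres (10 of the 18903 genes in the count table) were followed through cultured mouse astrocytes. They are Fn1, Eln, Fbn1, Fbn2, Fbln1, Fbln2, Fbln5, Mfap5, Postn and Ltbp1, taken by gene name without a filter on their values. The list was chosen with earlier results of these data known, so counts of these genes beside shares of all genes are descriptions. Astrocytes, the star-shaped support cells of the brain, were prepared from brains at postnatal days P1, P6 and P8, and their messenger RNA was sequenced to ask how gene expression changes when Rack7 (gene symbol Zmynd8), which encodes a chromatin reader protein, is deleted. At each day 2 libraries came from WT mice (hGFAP-cre::Rack7 +/+) and 2 from cKO mice (hGFAP-cre::Rack7 fl/fl), so that 12 libraries fell into 6 groups of 2. Both genotypes therefore carried the Cre transgene, whose human GFAP promoter is active in neural stem cells of the embryonic pallium, and the floxed allele had been made in C57BL/6 zygotes. By the study's methods the meninges were stripped, cultures were shaken to detach microglia and oligodendrocytes, and cells were then grown to confluence. P1, P6 and P8 are thus days of dissection, each followed by a period of culture before and after the shaking. The labels call the libraries biological repeats, without saying whether they came from separate animals or cultures, so p-values measure the spread between these samples.

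Fibronectin is a secreted glycoprotein that cells pull into fibrils through integrins, and that network is a scaffold on which other matrix proteins are laid down. Fibrillins assemble into microfibrils. Elastin is deposited on these and cross-linked by lysyl oxidases, and fibulins and microfibril-associated proteins help to join the components, while latent TGF-beta binding proteins park inactive TGF-beta in the same matrix. In the brain this set of genes is best known from the meninges and from fibroblasts and mural cells around vessels, and astrocytes in culture also lay down fibronectin.

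The libraries held between 54413504 and 89183250 counts, and all 10 genes passed the filter on low counts, with at least 68 counts in every library. Zmynd8 went against the labels as counted over the whole gene. It was higher in the libraries labelled cKO at P1 (213 and 216 against 136 and 136, in CPM, the counts scaled to a common library size). At P6 the values were 242 and 230.5 with the cKO label and 114 and 116 with the WT label, and at P8 they were 160.4 and 171 with the cKO label and 99.98 and 104 with the WT label. Gene-level counts do not show the floxed exons separately, and the study checked RACK7 protein in WT and cKO cultures by immunoblot, which the count table does not hold. The genotype names below are those of the labels. Of 9 astrocyte markers in the table all had counts in every group, and their summed level lay between 1404 and 2253 CPM in each group but P8 labelled cKO, where it was 687 to 702 CPM. Markers of microglia summed to 3095 to 5959 CPM over 10 genes, and those of fibroblasts to 367 to 25870 CPM over 9 genes.

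At P1 9 of the 10 genes were higher in libraries labelled cKO than in those labelled WT, and none was lower, where 4.01% of the 17938 genes tested were called higher and 0.892% lower. A gene was called when the adjusted p of edgeR's quasi-likelihood test (Benjamini-Hochberg over all genes tested) was below 0.05 and the fold change was at least 1.5. At P6 5 of the 10 were lower and 1, Ltbp1, was higher, against 6.38% and 7.16% of all genes. At P8 6 were lower and 2, Fbln2 and Ltbp1, were higher, against 8.37% and 11.2% of all genes. Over the 10 genes the median log2 difference was 1.21 at P1, then -0.53 and -0.67 at the later days, beside medians of 0.00, 0.00 and 0.01 over all genes tested. For each of the 10 genes at each day, the 2 values labelled cKO lay entirely on one side of the 2 values labelled WT. Such separation was not counted over all genes tested, so no share can be set beside it. With 2 values against 2 an exact permutation test cannot give a p under 0.333, so this is a description. In a bulk sample fewer cells of a type and less RNA per cell cannot be told apart.

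**Figure D1:**
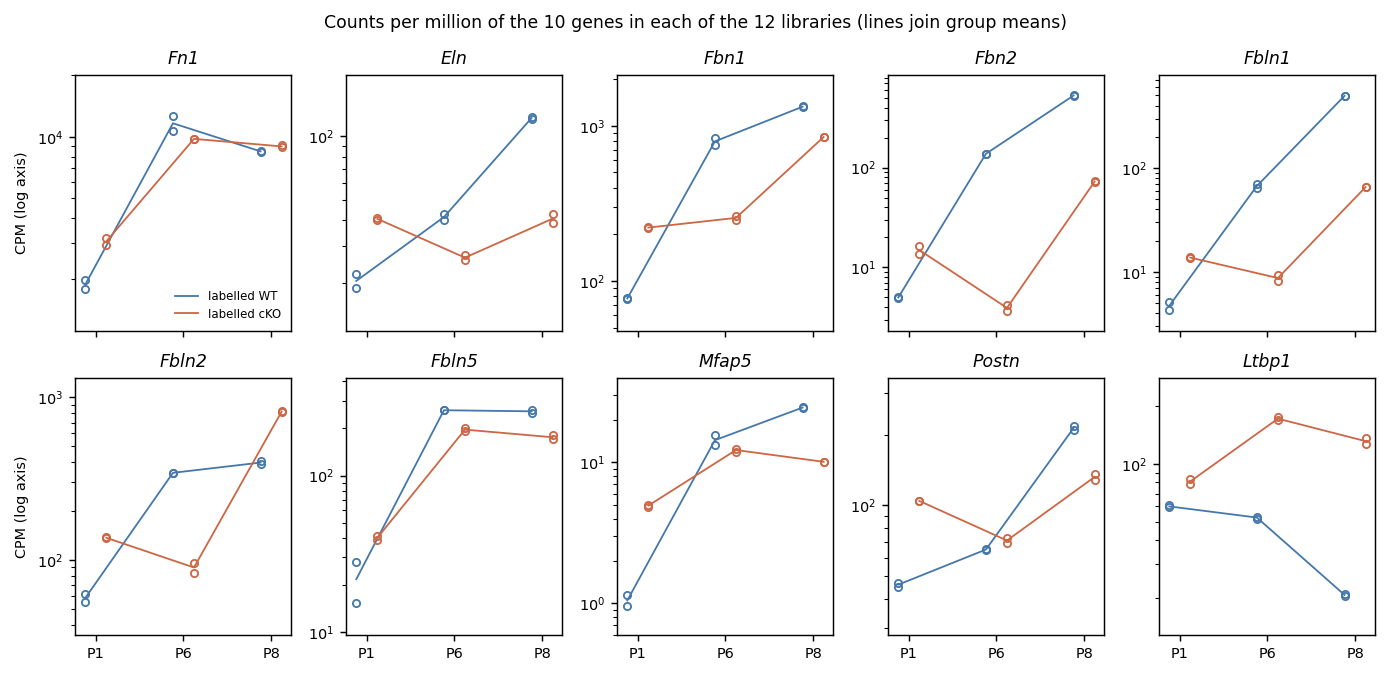
Level of each of the 10 genes in each of the 12 libraries (CPM on a log axis, 1 panel per gene), by postnatal day, with 1 point per library (blue labelled WT, orange labelled cKO) and lines through the group means. Fbn2 fell to 3.67 and 4.17 CPM in the P6 libraries labelled cKO, and the cKO line lies above the WT line at all 3 days in the Ltbp1 panel and at P1 and P8 in the Fbln2 panel.

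Fn1 encodes fibronectin (ENSMUSG00000026193, chromosome 1, 71585520 to 71653200, minus strand, GRCm38). It was the most abundant of the 10 by far, on the CPM scale and per length. It took 0.190% to 0.213% of all counts in the P1 libraries labelled WT and 1.07% to 1.25% in those at P6, where it ranked 2 among all genes. At P1 its level was 1993 and 1784 CPM in the libraries labelled WT and 3205 and 2937 CPM in those labelled cKO, a log2 difference of 0.70 ± 0.08 (SE, n = 2 per group, edgeR adjusted p = 0.000508). At P6 the order turned, with 12624 and 10675 CPM under the WT label and 9729 and 9807 CPM under the cKO label. The log2 difference of -0.25 ± 0.08 had an edgeR adjusted p of 0.039 but was a fold change under 1.5, so Fn1 was not called there. At P8 the levels were 8425 and 8539 against 8868 and 9079 CPM, a log2 difference of 0.08 ± 0.08 (edgeR adjusted p = 0.474). Fibronectin was thus higher with the cKO label at P1, and its later differences were small beside its rise from P1 to P6, which was 6.17-fold in libraries labelled WT and 3.18-fold in those labelled cKO.

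Fbn1 encodes fibrillin-1, the main fibrillin of adult microfibrils (ENSMUSG00000027204, chromosome 2, 125300594 to 125507993, minus strand). At P1 it measured 78.2 and 76.1 CPM with the WT label and 222 and 219.9 CPM with the cKO label, a log2 difference of 1.52 ± 0.05 (edgeR adjusted p = 2.62e-07). The order was inverted at P6, at 834 and 752 against 247 and 263 CPM, a log2 difference of -1.64 ± 0.05 (edgeR adjusted p = 4.98e-08). In libraries labelled WT Fbn1 had risen 10.3-fold between those days, whereas in those labelled cKO it differed by 1.15-fold and was not called. At P8 the levels were 1316 and 1335 against 841 and 849.7 CPM. The gap had narrowed to a log2 difference of -0.65 ± 0.05 (edgeR adjusted p = 9.2e-06), after a 3.32-fold rise from P6 under the cKO label and a 1.67-fold rise under the WT label.

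Fbn2 encodes fibrillin-2, a paralogue used mostly in developing tissues (ENSMUSG00000024598, chromosome 18, 58008623 to 58210487, minus strand). It moved over a wider range than any other of the 10 genes, with the highest group mean 134.9 times the lowest. At P1 it measured 5.05 and 4.93 CPM with the WT label and 16.4 and 13.5 CPM with the cKO label, a log2 difference of 1.58 ± 0.09 (edgeR adjusted p = 7.71e-06). At P6 it stood at 137 and 139 CPM under the WT label and at 4.17 and 3.67 CPM under the cKO label. This was 35.1-fold lower, a log2 difference of -5.13 ± 0.10 (edgeR adjusted p = 5.57e-09), and the groups were far apart. At P8 it measured 537 and 521 against 71.8 and 73.0 CPM, 7.31-fold lower with the cKO label (log2 difference -2.87 ± 0.09, edgeR adjusted p = 3.28e-08). From P6 to P8 Fbn2 rose 18.4-fold in libraries labelled cKO and 3.84-fold in those labelled WT.

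Mfap5 encodes MAGP-2, a small microfibril-associated glycoprotein that binds fibrillins (ENSMUSG00000030116, chromosome 6, 122505845 to 122529290, plus strand), and its mean over all libraries was the lowest of the 10 in CPM and per length. At P1 it measured 1.14 and 0.959 CPM with the WT label and 5.02 and 4.86 CPM with the cKO label. Its log2 difference of 2.24 ± 0.13 (edgeR adjusted p = 7.18e-06) was the largest of the 10 at that day. At P6 the values of 13.2 and 15.6 against 12.5 and 11.9 CPM gave -0.23 ± 0.11 on the log2 scale (edgeR adjusted p = 0.168), which was not called. At P8 the levels were 24.3 and 24.8 against 10.1 and 10.1 CPM, a log2 difference of -1.28 ± 0.11 (edgeR adjusted p = 2.21e-05). Mfap5 therefore had the direction of Fbn1 at each day, without a call at P6.

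Eln encodes elastin, the extensible core of elastic fibres (ENSMUSG00000029675, chromosome 5, 134702593 to 134747323, minus strand). Its level at P1 was 18.9 and 22.1 CPM in libraries labelled WT and 40.8 and 40.2 CPM in those labelled cKO (log2 difference 0.98 ± 0.09, edgeR adjusted p = 0.000128). At P6 it was 39.9 and 42.7 against 27.2 and 25.7 CPM (-0.64 ± 0.09, edgeR adjusted p = 0.00056). At P8 it was 122 and 123 against 42.6 and 38.6 CPM (-1.59 ± 0.09, edgeR adjusted p = 1.09e-06). Elastin thus rose at both steps under the WT label, 2.01-fold and 2.96-fold. Under the cKO label it fell 1.53-fold and then rose 1.53-fold, so that its P8 values spanned its P1 values.

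Fbln1 encodes fibulin-1, which binds fibronectin and lies within elastic fibres (ENSMUSG00000006369, chromosome 15, 85205949 to 85286535, plus strand). It measured 5.11 and 4.29 CPM with the WT label and 13.6 and 13.8 CPM with the cKO label at P1, a log2 difference of 1.55 ± 0.09 (edgeR adjusted p = 1.15e-05). At P6 it measured 63.8 and 70.4 against 8.13 and 9.27 CPM, which was 7.71-fold lower (log2 difference -2.95 ± 0.09, edgeR adjusted p = 5.61e-08). At P8 it measured 498 and 495 against 65.7 and 65.3 CPM, 7.58-fold lower (-2.92 ± 0.09, edgeR adjusted p = 3.55e-08). The 2 later differences were of like size on different levels: Fbln1 rose 7.40-fold from P6 to P8 under the WT label and 7.53-fold under the cKO label. Its P8 values under the cKO label lay within the range of its P6 values under the WT label.

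Fbln2 encodes fibulin-2, a close relative that joins fibrillin, fibronectin and basement membrane proteins (ENSMUSG00000064080, chromosome 6, 91212455 to 91272540, plus strand). At P1 it measured 55.4 and 61.3 CPM with the WT label and 136 and 138 CPM with the cKO label (log2 difference 1.23 ± 0.07, edgeR adjusted p = 7.09e-06). At P6 it measured 345 and 343 against 96.4 and 83.3 CPM (-1.94 ± 0.07, edgeR adjusted p = 1.28e-07). At P8 it measured 405 and 389 against 815 and 821 CPM (1.04 ± 0.07, edgeR adjusted p = 3.4e-06). Its direction therefore turned at each day, from higher to lower and back to higher, with a 9.10-fold rise from P6 to P8 in libraries labelled cKO. Over the same step Fbln2 in libraries labelled WT differed by 1.16-fold and was not called.

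Fbln5 encodes fibulin-5, which tethers elastin to microfibrils (ENSMUSG00000021186, chromosome 12, 101746565 to 101819055, minus strand). At P1 it measured 15.3 and 28.1 CPM in the libraries labelled WT, which differed more from each other than for any other of the 10 genes, and 41.2 and 38.7 CPM in those labelled cKO. The log2 difference of 0.88 ± 0.21 (edgeR adjusted p = 0.0315) passed, but without the first P1 library labelled WT it was 0.51, under the fold required. The call was also lost with the compared groups alone (edgeR adjusted p = 0.167), without either P1 library labelled cKO (0.130 and 0.0942) and without any 1 of the P8 libraries (0.0506 to 0.0524). At P6 it measured 262 and 261 against 202 and 191 CPM (-0.41 ± 0.20, edgeR adjusted p = 0.186). At P8 it measured 262 and 253 against 171 and 181 CPM (-0.55 ± 0.20, edgeR adjusted p = 0.0674). Neither was called, although the groups did not overlap, and what stood out for Fbln5 was its rise from P1 to P6, 12.03-fold under the WT label and 4.92-fold under the cKO label.

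**Figure D2:**
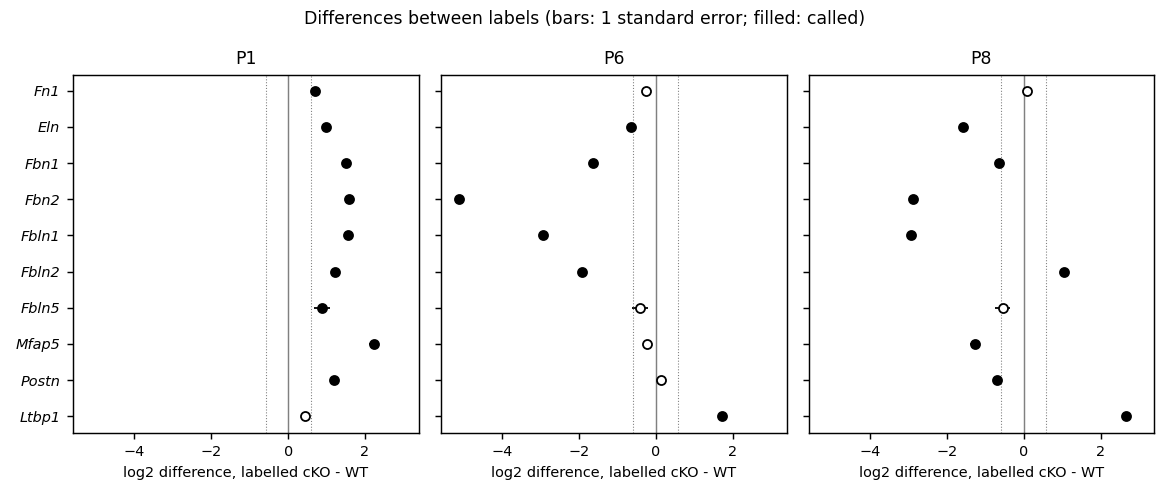
Log2 difference between libraries labelled cKO and WT (x axis, from edgeR, bars show 1 SE) for each of the 10 genes (rows) at P1, P6 and P8 (panels), with filled points where the gene was called and dotted lines at the 1.5-fold minimum. At P1 all 10 points lie above 0, from 0.43 for Ltbp1 to 2.24 for Mfap5, and at P8 they run from -2.92 for Fbln1 to 2.67 for Ltbp1.

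Postn encodes periostin, a matricellular protein that binds fibronectin and is induced by TGF-beta in many connective tissues (ENSMUSG00000027750, chromosome 3, 54361109 to 54391037, plus strand). Its P1 levels were 45.1 and 46.9 CPM with the WT label and 104 and 105 CPM with the cKO label, a log2 difference of 1.18 ± 0.05 (edgeR adjusted p = 1.18e-06). Its P6 levels of 65.1 and 64.8 against 72.8 and 69.0 CPM gave 0.13 ± 0.05 (edgeR adjusted p = 0.0993). Its P8 levels were 209 and 217 against 129 and 135 CPM, a log2 difference of -0.69 ± 0.05 (edgeR adjusted p = 6.59e-06). Periostin values were higher under the cKO label at P1 and P6 and lower at P8, whereas elastin was already lower at P6.

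Ltbp1 encodes latent TGF-beta binding protein 1, which holds inactive TGF-beta on fibronectin and fibrillin fibrils (ENSMUSG00000001870, chromosome 17, 75005568 to 75392512, plus strand). It stood apart from the other genes. At P1 it measured 60.8 and 59.2 CPM with the WT label and 78.9 and 83.2 CPM with the cKO label, a log2 difference of 0.43 ± 0.05 (edgeR adjusted p = 0.00112) that was under the 1.5-fold needed for a call. At P6 it measured 53.1 and 51.8 against 176 and 169.5 CPM, 3.29-fold higher (log2 difference 1.72 ± 0.06, edgeR adjusted p = 6.16e-08). At P8 it measured 20.4 and 20.9 against 127 and 136 CPM, 6.37-fold higher (2.67 ± 0.06, edgeR adjusted p = 4.02e-09). Of the 10 genes only Ltbp1 had a higher mean with the cKO label at all 3 days, by more at each day, and in libraries labelled WT it was the one whose level was lower at P8 than at P1.

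Promoter sequence was read for 6 of the 10 genes (Fbn1, Fbln1, Fbln2, Fbln5, Postn and Ltbp1) from RefSeq on GRCm38.p6. Windows of 250 bases before a start site are shown for Ltbp1, the gene that was higher at P6 and P8, with both of its annotated starts, and for Fbln1 and Postn, which were lower at P8. The windows are chr17:75005279-75005528 and chr17:75178531-75178780 for Ltbp1, chr15:85205699-85205948 for Fbln1 and chr3:54360857-54361106 for Postn, all on the plus strand, and none overlaps an annotated exon. Capitals mark matches, on either strand, to 3 sets of letters searched for. One is TATAAA, found in some core promoters. Another is GGGCGG, which SP factors bind. The other is TGANTCA, which the factor AP-1 binds.
Ltbp1 first start: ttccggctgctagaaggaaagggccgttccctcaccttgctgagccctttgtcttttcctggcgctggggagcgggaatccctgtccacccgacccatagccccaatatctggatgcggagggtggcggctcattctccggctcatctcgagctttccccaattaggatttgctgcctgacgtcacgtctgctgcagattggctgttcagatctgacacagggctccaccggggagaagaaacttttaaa
Ltbp1 second start: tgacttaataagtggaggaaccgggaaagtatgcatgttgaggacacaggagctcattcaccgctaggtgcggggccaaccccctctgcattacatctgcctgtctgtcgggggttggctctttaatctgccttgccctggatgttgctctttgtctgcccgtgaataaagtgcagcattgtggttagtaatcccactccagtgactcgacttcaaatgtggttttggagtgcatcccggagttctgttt
Fbln1 first start: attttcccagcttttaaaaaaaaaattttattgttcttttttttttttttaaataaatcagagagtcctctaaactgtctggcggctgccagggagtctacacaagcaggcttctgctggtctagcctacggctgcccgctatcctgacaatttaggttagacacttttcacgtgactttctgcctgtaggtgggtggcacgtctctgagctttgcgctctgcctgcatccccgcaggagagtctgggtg
Postn second start: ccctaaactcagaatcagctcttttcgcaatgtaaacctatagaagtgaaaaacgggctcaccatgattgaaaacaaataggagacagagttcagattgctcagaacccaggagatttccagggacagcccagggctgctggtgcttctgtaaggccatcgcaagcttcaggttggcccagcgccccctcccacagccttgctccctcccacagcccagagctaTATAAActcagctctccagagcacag

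Of these 4 windows the one of Postn held a match, a single TATAAA, which 12.4% of 32851 mouse promoters of the same length hold. GGGCGG is found in 32.7% of them and TGANTCA in 6.75%. Among the genes read but not shown, GGGCGG had 1 match each in Fbn1 and Fbln2. The first start of Fbln5 had 2 GGGCGG matches and its second start had none. None of these windows held TATAAA or TGANTCA. The window of the first Ltbp1 start held 12 CpG dinucleotides and the second 7, where Fbln1 held 7 and Postn 4, beside a median of 6 over all promoters. A second annotated start of Fbln1, whose window overlaps annotated exons and is not shown, had 1 GGGCGG match and 14 CpG dinucleotides, and the first start of Postn had no match and 3. The sources used here do not separate reads from the alternative starts of Ltbp1, so the counts above are for both together.

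In libraries labelled WT 8 of the 10 genes rose from P1 to P6 and none fell, where 12.2% of all genes rose and 10.9% fell, and the median log2 change of the 10 was 2.99. The 2 that were not called were Postn (0.50) and Ltbp1 (-0.19). From P6 to P8 under the WT label 6 rose and 1, Ltbp1, fell (log2 change -1.34), against 8.66% and 10.3% of all genes. In libraries labelled cKO the step from P1 to P6 split the genes: 4 rose and 4 fell, against 11.0% and 10.4% of all genes. The falls were near the fold minimum: without the second P6 library labelled cKO 2 genes fell, and at a 2-fold minimum 1 did, while 4 rose in both cases. Fn1 (1.67), Fbln5 (2.30), Mfap5 (1.31) and Ltbp1 (1.09) were those that rose, and Eln (-0.61), Fbn2 (-1.93), Fbln1 (-0.65) and Fbln2 (-0.61) those that fell, on the log2 scale. From P6 to P8 under the cKO label 6 rose and none fell, against 11.9% and 12.2% of all genes, led by Fbn2 (4.21), Fbln2 (3.19) and Fbln1 (2.91). These steps share the P6 libraries, so they are not independent of each other.

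Whether the difference between the labels itself changed with day of dissection was tested as an interaction in the same edgeR fit, called on the adjusted p alone. Between P1 and P6 it changed for all 10 genes, downward for 9 and upward for Ltbp1, where 15.3% of all genes changed in either direction. Fbn2 moved by -6.72 ± 0.13 on the log2 scale (edgeR adjusted p = 4.04e-09) and Fbln1 by -4.49 ± 0.13 (edgeR adjusted p = 4.12e-08), and Ltbp1 moved by 1.29 ± 0.08 (edgeR adjusted p = 4.9e-06). Between P6 and P8 it changed for 7, where 21.5% of all genes changed. It went up for Fbn1 (0.99), Fbn2 (2.26), Fbln2 (2.98) and Ltbp1 (0.95) and down for Eln (-0.95), Mfap5 (-1.05) and Postn (-0.82). Between P1 and P8 it changed for 9, beside 25.7% of all genes, and Fbln2 was the one that did not pass (-0.19 ± 0.10, edgeR adjusted p = 0.201).

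Paralogues were compared within each library by reads per kilobase of exon, a ratio that does not depend on library size. For P1 the ratio of Fbn2 to Fbn1 was 0.0592 and 0.0595 with the WT label and 0.0677 and 0.0563 with the cKO label, so the groups overlapped. For P6 it was 0.151 and 0.169 against 0.0155 and 0.0128. For P8 it was 0.374 and 0.358 against 0.0783 and 0.0789. Fbn2 thus gained on Fbn1 from P1 to P8 under the WT label and lay well below that at P6 and P8 under the cKO label. The ratio of Fbln1 to Fbln2 in libraries labelled WT went from 0.135 and 0.102 (P1) through 0.270 and 0.300 (P6) to 1.79 and 1.86 (P8). In those labelled cKO it stayed between 0.116 and 0.162 on all 3 days. Fibulin-1 transcripts outnumbered fibulin-2 transcripts per length in the P8 libraries labelled WT and in no other group. An exact permutation test of 2 values against 2 cannot give a p under 0.333, so these ratios are descriptions.

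**Figure D3:**
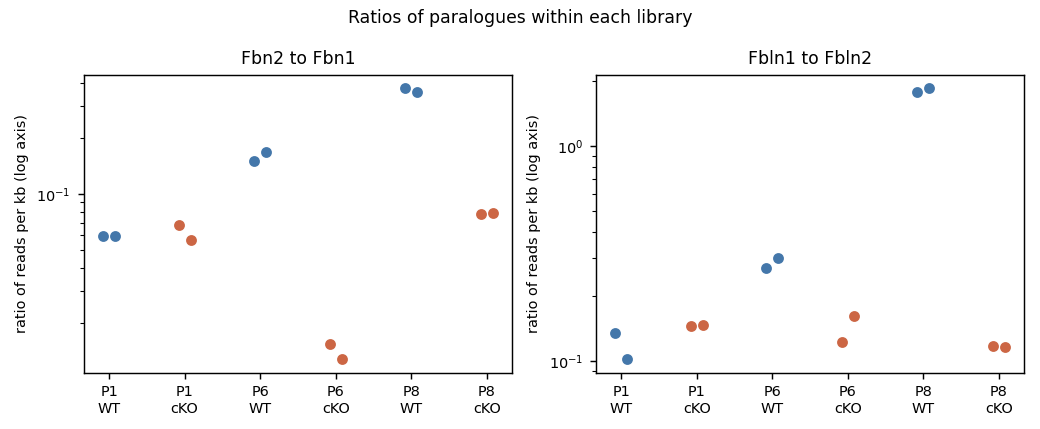
Ratio of reads per kilobase within each library (log axis) for Fbn2 to Fbn1 and for Fbln1 to Fbln2, by postnatal day and label (blue WT, orange cKO), 1 point per library. The P6 points for Fbn2 to Fbn1 lie at 0.151 and 0.169 with the WT label and at 0.0155 and 0.0128 with the cKO label.

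Per length, in RPKM (CPM divided by kilobases of exon), Fn1 came first in every library, at 162 ± 13 RPKM (SD, n = 2) in P1 libraries labelled WT and 997 ± 118 in those at P6. The gene in second place differed between groups. It was Fbln2 in both P1 groups (9.16 ± 0.65 RPKM labelled WT and 21.5 ± 0.2 labelled cKO), Fbn1 in P6 libraries labelled WT (65.4 ± 4.8) and Fbln5 in those labelled cKO (28.5 ± 1.1). In P8 libraries labelled WT it was Fbln1 (114 ± 0.3), followed by Fbn1 (109 ± 1), and in those labelled cKO Fbln2 (128 ± 1). Without Fn1 the other 9 genes summed to 285 to 304 CPM at P1 with the WT label and 657 to 658 CPM with the cKO label. The sum was 1739 to 1813 against 826 to 846 CPM at P6, and 3380 to 3394 against 2272 to 2310 CPM at P8. When the 6 groups were ordered by level within each gene, neighbouring groups overlapped for Eln, Fbln1 and Fbln5, and for none of the other 7 genes. For Eln, P8 labelled cKO overlapped P1 labelled cKO and P6 labelled WT. For Fbln1 it was P8 labelled cKO with P6 labelled WT, and for Fbln5 P8 with P6, both labelled WT. Such overlap was not counted over all genes tested, so no share can be set beside this description. P1 labelled WT was the lowest group for 8 genes, the exceptions being Fbn2 (P6 labelled cKO) and Ltbp1 (P8 labelled WT).

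Fibroblast marker genes moved with most of the 10 genes. Of the 9 measured, 7 were higher and none lower with the cKO label at P1, none higher and 7 lower at P6, and 1 higher and 6 lower at P8. Their summed level was 367 to 381 CPM labelled WT and 2408 to 2447 CPM labelled cKO at P1. It was 6607 to 6663 against 2413 to 2590 CPM at P6 and 25738 to 25870 against 8109 to 8358 CPM at P8. Most of that sum came from collagen genes, while Lum had no count in the P6 libraries labelled cKO. The 1 gene called higher at P8 was Dpt, at a mean of 0.197 CPM labelled cKO. Dpt had no count in any library labelled WT. The part of these cells in the differences of the 10 genes was not tested. Fbln2 at P8 and Ltbp1 at P6 and P8 were called the other way from the summed fibroblast level. Postn at P6 (log2 difference 0.13) and Fn1 at P8 (0.08) also went the other way, without a call.

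**Figure D4:**
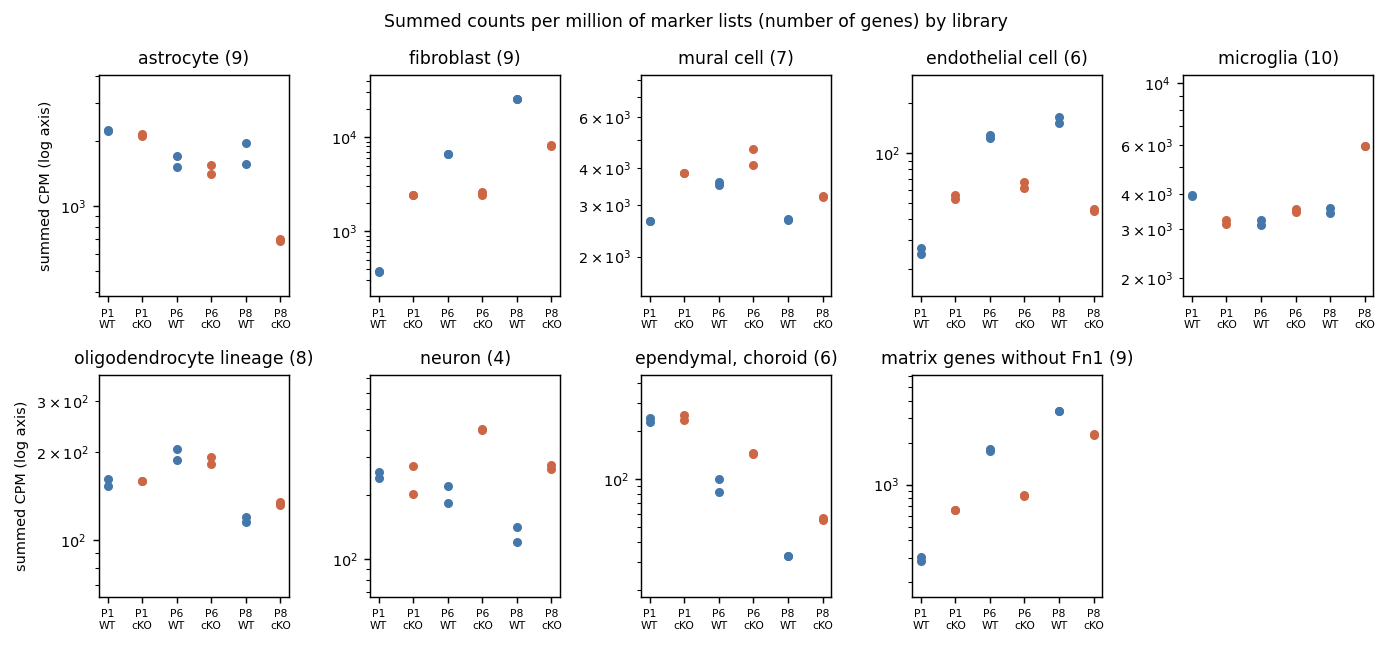
Summed level (CPM, log axis) of the marker genes of 8 cell types in each library, by group (blue labelled WT, orange labelled cKO), 1 panel per list with the number of genes in its title, and a last panel with the sum of the matrix genes other than Fn1. The fibroblast sum runs from 367 CPM in P1 libraries labelled WT to 25870 CPM in P8 libraries labelled WT, and the astrocyte sum is lowest, at 687 and 702 CPM, in P8 libraries labelled cKO.

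Other cell types shifted less uniformly. Of 9 astrocyte markers 1 was higher at P1, 1 lower at P6 and 5 lower at P8 under the cKO label. Of 10 microglial markers 2 were lower at P1, 1 lower at P6, and 6 higher and 1 lower at P8, when they summed to 5934 to 5959 CPM against 3431 to 3554 CPM. Endothelial markers (6 in the table) summed to 24.9 to 26.9 against 52.7 to 56.2 CPM at P1, 124 to 127 against 61.2 to 67.1 CPM at P6 and 150 to 164 against 44.9 to 46.0 CPM at P8. Of these 6 genes 4 were higher at P1, 1 higher and 4 lower at P6, and 2 higher and 2 lower at P8, when their median log2 difference was 0.82. Most of the P8 sum under the WT label came from Cdh5, a gene named after its values were seen (133 ± 11 CPM labelled WT). Under the cKO label it was 9.84 ± 0.35 CPM, the smaller part of the sum. Of 7 mural cell markers 2 were higher at P1, 1 higher and 3 lower at P6, and 1 higher and 2 lower at P8. Their sum was nevertheless higher with the cKO label at each day. It was 2637 to 2642 against 3859 to 3868 CPM at P1 and 3500 to 3592 against 4099 to 4649 CPM at P6. At P8 it was 2662 to 2695 against 3195 to 3229 CPM. Most of this sum came from Acta2 and Tagln, neither of which was called at any day. Of 8 oligodendrocyte lineage markers 1 was higher at P1, 2 lower at P6, and 1 higher and 3 lower at P8. Of 4 neuronal markers 1, 3 and 2 were higher at P1, P6 and P8, and of 6 ependymal and choroid plexus markers 1, 2 and 3 were higher, with 1 lower at P6. The part of these shifts in the results for the 10 genes was not tested.

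Of 12 other measured genes of elastic fibres and microfibrils 4 were higher and none lower at P1 under the cKO label, 2 higher and 5 lower at P6, and 1 higher and 7 lower at P8, with median log2 differences of 0.38, -0.81 and -1.17. Mfap2 (MAGP-1, which binds fibrillins) was 15.8 ± 0.9 CPM labelled WT and 3.21 ± 0.01 labelled cKO at P6 (SD, n = 2, log2 difference -2.30, edgeR adjusted p = 9.96e-06). Ltbp2, a fibrillin-binding relative of Ltbp1 that does not hold TGF-beta, was higher at P1 (0.61) and lower at P6 (-1.56) and P8 (-1.19). Ltbp3 did not reach the fold for a call (0.34, 0.46 and -0.46). Hmcn2, which encodes the large fibulin-related protein hemicentin-2, was higher at all 3 days (2.51, 3.79 and 3.95), with 0.818 ± 0.080 CPM labelled WT and 12.6 ± 1.1 labelled cKO at P8. The direction of Ltbp1 at P6 and P8 was therefore not that of Ltbp2.

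Of 12 cross-linking and deposition genes 4 were higher and none lower at P1, 5 higher and 2 lower at P6, and 2 higher and 3 lower at P8, with medians of 0.21, 0.20 and -0.13. Lysyl oxidase, Lox, which cross-links elastin and collagen, was 259 ± 1 CPM labelled WT and 641 ± 6 labelled cKO at P1 (log2 difference 1.31), and it was lower at P6 (-0.61). At P8 its log2 difference of -0.51 missed the fold for a call. Loxl1 was higher at P1 (1.33), Loxl2 at P1 (1.27) and P8 (0.70), and Loxl4 at P6 (1.20) and P8 (1.01). Thsd4, whose product promotes assembly of fibrillin-1 microfibrils, was 100.2 ± 2.9 CPM labelled WT and 4.50 ± 0.12 labelled cKO at P8 (log2 difference -4.47, edgeR adjusted p = 4.01e-08). Adamts10, a fibrillin-binding member of the ADAMTS family, was lower at P6 (-0.70) and P8 (-1.23).

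Among 6 TGF-beta ligands and matrix genes known to respond to them, 1 was higher and 1 lower at P1, 1 higher and 2 lower at P6, and 3 higher and 1 lower at P8, with medians of 0.18, 0.20 and 0.40. Ccn2, listed as Ctgf and encoding connective tissue growth factor, was higher at all 3 days (2.03, 0.90 and 1.02), with 460.1 ± 2.5 CPM labelled WT and 933 ± 5 labelled cKO at P8 (edgeR adjusted p = 1.63e-07). Ccn1, listed as Cyr61, was not called (0.31, 0.43 and 0.14). Tgfbi, a relative of periostin, was lower at all 3 days (-0.91, -0.69 and -1.30). These genes did not share 1 direction.

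Of 8 fibronectin receptors 1 was higher at P1, 3 were lower at P6 and 2 higher at P8, with medians of 0.09, -0.31 and 0.22. Itgb1, the beta subunit common to many fibronectin-binding integrins, was the most abundant and missed the fold for a call at each day (0.41, -0.31 and -0.35). Syndecan-4, Sdc4, was not called either (0.10, 0.27 and 0.32). Itgb3 was higher at P1 (2.03) and P8 (0.92), and Itga8 was lower at P6 (-1.27) and higher at P8 (0.90).

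**Figure D5:**
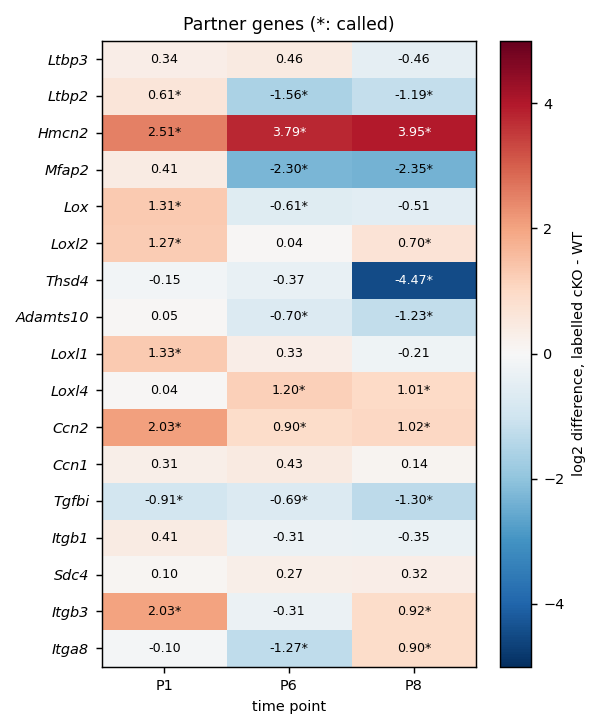
Heat map of the log2 difference between libraries labelled cKO and WT (colour scale at right, red higher and blue lower with the cKO label) for the 17 named genes of the 4 partner lists (rows) at P1, P6 and P8 (columns), with each value printed and an asterisk where the gene was called. The lowest cell at P8 is Thsd4 at -4.47 and the highest is Hmcn2 at 3.95.

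For each of the 10 genes the gene outside the list with the nearest profile was found over the 12 libraries, by the root-mean-square (RMS) difference of log2(CPM + 0.5) values centred on each gene's mean, among 15136 genes. Ltbp1 was nearest to Irx2, a homeobox gene (RMS 0.200), Fbln2 to Mrc1, the mannose receptor of macrophages (0.199), and Fn1 to Sema3e, a secreted semaphorin (0.153). Eln was nearest to Osr1 (0.208), Mfap5 to Frk (0.236), Fbn2 to Prdm6 (0.284), Postn to the matrix protease Adamts5 (0.292), Fbn1 to Bmper (0.302), Fbln5 to Lmx1b (0.335) and Fbln1 to Lrrc17 (0.458). Over all candidates the median RMS lay between 0.786 for Postn and 2.53 for Fbn2. No gene of the 10 had the same nearest partner as another, but Lrrc17 also ranked 3 for Fbn2 (RMS 0.308).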

How the data were processed

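Messenger RNA of 12 libraries (6 groups of 2) was measured by RNA-seq. Reads were aligned by the authors with HISAT2 to mm10 (GRCm38), and the deposited values are raw counts per gene. No source used here names the counting tool, its annotation or its strand setting. Without strand, reads of Fn1, Eln, Fbn1 and Fbn2 cannot be told apart from those of overlapping genes on the opposite strand, and Ltbp1 overlaps Gm6276 on its own strand. Depth was 54413504 to 89183250 counts. The 10 genes and all lists were chosen with earlier results of these data known.

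Counts were fitted with edgeR 4.0.16 (R 4.3.3, limma 3.58.1) over all 12 libraries with 1 mean per group, TMM scaling and filterByExpr, which kept 17938 of 18903 genes. The quasi-likelihood test was two-sided, and p-values were adjusted by Benjamini-Hochberg over all genes tested. Differences were called on both an adjusted p (threshold 0.05) and a minimum fold of 1.5, the fold used in the study's methods, and interactions on the adjusted p alone. SE values were taken from the fitted log2 change and its F statistic, and the common biological coefficient of variation was 0.178. CPM used the TMM-scaled library size, and RPKM divided CPM by union exon length in GENCODE vM21, which held 18873 of the identifiers and gave the gene coordinates. The fit was tested on simulated data.

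Replicates of a group differed by more than sampling noise (chi-square per degree of freedom 30.5 to 47.1). Replicate numbers did not pair the samples: the correlation of deviations between same-numbered libraries was -0.030 (P1), -0.0055 (P6) and -0.063 (P8). Of 4 partner lists the text names, per list, the 2 most abundant genes and up to 2 called at P8 and 1 each at P1 and P6 with the largest change, among genes with a mean of at least 1 CPM. Genes of these lists with no row in the table (Emilin3, Adamts17, Adamtsl2 and Itgb6) were not analysed here, and 1 further gene, left out of the TGF-beta list and of its counts, is not reported here. Alternatives were other scaling and filters, DESeq2 1.42.0, the compared groups alone, a replicate block, a 2-fold minimum and each library left out.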

Additional observations from a re-analysis of the deposited data

Results flagged for a closer look

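These results were selected because the difference between libraries labelled cKO and WT changed between postnatal days, by an interaction term in the edgeR fit with an adjusted p below 0.05. Groups of 2 libraries are too small to test for single outlying samples. The P1 to P6, P6 to P8 and P1 to P8 changes share libraries and are not independent.

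Between P1 and P6 the log2 difference changed by -6.72 for Fbn2, -4.49 for Fbln1, -3.17 for Fbln2, -3.15 for Fbn1 and -2.47 for Mfap5. The change was smaller for Eln (-1.62), Fbln5 (-1.29), Postn (-1.05) and Fn1 (-0.96), and it was positive for Ltbp1 (1.29). For Eln, Fbn1, Fbn2, Fbln1 and Fbln2 the difference was called on opposite sides of 0 at these days.

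Between P6 and P8 the difference moved up for Fbln2 (2.98), Fbn2 (2.26), Fbn1 (0.99) and Ltbp1 (0.95). It moved down for Mfap5 (-1.05), Eln (-0.95) and Postn (-0.82). Fbln2 was the one gene called on opposite sides of 0 at these 2 days.

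Between P1 and P8 the difference fell for Fbln1 (-4.47), Fbn2 (-4.45), Mfap5 (-3.52), Eln (-2.57), Fbn1 (-2.17), Postn (-1.87), Fbln5 (-1.43) and Fn1 (-0.62). It grew for Ltbp1 (2.24). The summed level of fibroblast marker genes, 2408 to 2447 CPM with the cKO label against 367 to 381 CPM with the WT label at P1 and 8109 to 8358 against 25738 to 25870 CPM at P8, moved with the first 8 genes and against Ltbp1, and its part in these changes was not tested.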

How the results depend on the processing

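Over 18 alternative settings for each of 100 differences, 1770 of 1800 values kept both direction and call. Many of these settings left out a library outside the compared groups. That bears on the spread and scaling but hardly on the difference, so its direction was nearly fixed there. The count of members called, both directions together, stayed within 1.5 times of that reported, except that a 2-fold minimum left 5 of 8 calls between P1 and P6 in libraries labelled cKO. By direction, the 4 falls of that step became 1 at that minimum and 2 without the second P6 library labelled cKO. With library totals alone as scaling, the median of all genes moved by -0.105 (WT) and -0.110 (cKO) on the log2 scale for P6 against P1, and by at most 0.06 elsewhere.

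The Fbln1 interaction between P6 and P8, 0.02 as reported, turned sign without a call with DESeq2 size factors (-0.0046), in edgeR on the compared groups alone (-0.00041), in DESeq2 (-0.0037), and without the second P6 library labelled WT (-0.042) or the first labelled cKO (-0.067). With each library left out in turn it lay between -0.067 and 0.12. The Fbln5 change from P6 to P8 with the WT label became 0.0038 without the second P8 library labelled WT, and -0.050 without the first was its other extreme. The losses of the Fbln5 call at P1 are given with that gene. Its interaction between P1 and P6 was lost without the first P1 (edgeR adjusted p = 0.0520) or second P6 (0.0559) library labelled cKO, and Fbln5 at P8 was called with library totals (-0.61).

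Between P1 and P6 with the cKO label, leaving out 1 P6 library brought Eln (-0.57, without the second), Fbln1 (-0.56, without the first) and Fbln2 (-0.51, without the second) under the fold minimum and Postn over it (-0.60, without the first; -0.67 with library totals). Eln from P6 to P8 with the cKO label fell under it with library totals (0.58) and without the second P6 (0.58) or first P8 (0.54) library. The cause was not tested. With the replicate block the Fn1 interaction between P6 and P8 (0.33) was called (edgeR adjusted p = 0.0421), as in DESeq2 (0.0150) and without either P1 (0.0479 and 0.0486) or the second P6 (0.00730) library labelled WT; the block changed no other call.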
